A study of Caenorhabditis elegans with 2 samples.

Results

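The 8 genes described here act on cyclin-dependent kinases (CDKs) of Caenorhabditis elegans: the CDK inhibitors cki-1 and cki-2, the inhibitory kinase gene wee-1.3, the phosphatase genes cdc-25.1, cdc-25.2, cdc-25.3 and cdc-25.4, and the CDK-binding subunit gene cks-1. They were chosen by name, as inhibitors, phosphatases and kinases that act on CDKs, and all 8 were found among the 19973 protein-coding genes of the nuclear chromosomes. The data are ChIP-seq peak lists for LIN-35, the worm retinoblastoma protein, from whole L1 larvae of both sexes. The samples are 2 biological replicates of a single group, with nothing to set them against. Both replicates came from strain YL398, which carries the mutation unc119(ed3) and a transgene, vrIs55, with a wild-type unc-119 copy as its marker. The transgene expresses a GFP- and FLAG-tagged LIN-35 under control of the ges-1 promoter, which is active in the gut, and a gene without a peak here may be bound in other tissues. One label names LIN-35 and another the GFP fusion as the antibody target, so whether LIN-35 from the endogenous gene was also precipitated was not tested. Peak lists hold no expression values, so the labelled stage could not be checked against marker genes.

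A CDK is active when bound to a cyclin, and it is held back by inhibitors of the CIP/KIP family, which bind the complex, and by WEE1 and MYT1 kinases, which phosphorylate it. CDC25 phosphatases remove that phosphate. LIN-35 belongs, with E2F and DP proteins, to DREAM, a repressor complex of many genes for cell division, and in worms both lin-35 and cki-1 restrain entry into S phase. DREAM contacts DNA through E2F sites and through CHR sites, which are read by LIN-54.

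Of the 8 genes, 2 bore a promoter peak in the reproducible list, wee-1.3 and cki-2, and the other 6 had none. A promoter peak is a peak whose summit lies from 500 bp upstream to 200 bp downstream of any annotated transcript start. The reproducible list holds the 6712 peaks that passed the authors' test of irreproducible discovery rate. Of these, 6172 overlapped a peak in both replicate lists, so not every peak had a partner in each replicate. In the reproducible list 19.8% of all protein-coding genes bore a promoter peak. The 25% found for the 8 genes was near that background. The peaks at wee-1.3 and cki-2 differed widely in strength, with signals of 2444 and 164.9. The signal is the enrichment as the authors' peak caller scored it, and it can be compared only within a list. These lists do not give the read depth, and a single peak therefore has no error.

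The bases under these peaks are shown first because both promoter summits lay beside short words of the E2F and CHR type. The E2F words searched were TTCCCGC and its variants with another middle, namely TTCGCGC, then TTGCCGC as found at cki-2, and finally TTGGCGC as found upstream of cki-1. The CHR words were TTTGAA and, as a less common form, TTCGAA. The GATA word, of the kind bound by gut GATA factors, was TGATAA. A word counted if it lay on either strand and at most 75 bp from a summit. Capitals mark a match, and sequences are from the RefSeq WBcel235 genome, written along the gene's strand. At cki-2 (chrII:7816355-7816384, plus strand) a TTGCCGC word faced its own reverse complement across 7 bases, and the summit lay on a base of the second. At wee-1.3 (chrII:9716787-9716816, minus strand) a TTCGCGC word was followed by a TTTGAA word 6 bases on, both downstream of the summit. Beside the strongest summit in the long region upstream of cki-1 (chrII:7807102-7807131, plus strand) a TTGGCGC word overlapped its own reverse complement. It began 22 bp from that summit, at 7807088. The wee-1.3 stretch and this one are cut around words and leave the summit out. A weaker summit of the same region (chrII:7809240-7809269, plus strand) had no match within 75 bp. It is shown as a contrast and is cut around the summit itself. Cut in that way, the 30 bases at the strongest upstream summit also held no match.
cki-2 promoter: TTGCCGCatttctcGCGGCAAcaacaaaga
wee-1.3 promoter: TTCGCGCgcttgtTTTGAAttgcaatcgcc
cki-1 upstream, strongest summit: gaaatttcTTGGCGCCAAaagtaaaatgtg
cki-1 upstream, summit nearest the gene: cgctgcgtctctatttcttcagcactctct

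The inhibitory kinase gene wee-1.3 carried one of the strongest peaks of the whole list. It encodes the worm MYT1-type kinase, which keeps CDK-1 inactive in oocytes before maturation. The gene (WBGene00006940) lies on the minus strand of chromosome II from 9713737 to 9716467 and has 1 annotated start. Its peak ran from 9716649 to 9717027 in the ce11 build, 379 bp wide, with the summit at 9716851, 384 bp upstream of the start in the 830 bp that separate wee-1.3 from its same-strand neighbour Y53C12A.6. The signal of 2444 ranked 20 of 6712 peaks, and by gene wee-1.3 ranked 24 of the 3959 protein-coding genes with a promoter peak. Their median signal was 141.0, so wee-1.3 stood 17.3 times above it.

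Both replicates held the wee-1.3 peak among their strongest. In replicate 1 it had a signal of 2302 and ranked 19 of 30000 peaks, and in replicate 2 a signal of 142.7 and rank 45 of 26341. The replicate 2 peak, 181 bp wide, lay inside the 379 bp of the reproducible peak and so did not reach 50% reciprocal overlap with it. The replicate summits were 8 bp apart, against a median of 27 bp (interquartile range 11 to 58) over the 6172 reproducible peaks with a partner in both replicates. Over the 100 strongest peaks that median was 5 bp. No other protein-coding gene had this summit in its promoter window, but the start of the piRNA gene 21ur-12807 lay 79 bp away. Because the summit is 384 bp from the start, wee-1.3 had no promoter peak in a window of 250 bp either side.

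A second reproducible peak lay past the 3′ end of wee-1.3. Its summit at 9713268 was 469 bp beyond the gene's end, with a signal of 105.8 and rank 3126. It fell inside a tRNA gene, WBGene00014588, 28 bp from the start of that gene, and inside the non-coding RNA gene Y53C12A.12, 45 bp from its start. Replicate 1 had a signal of 93.2 there (rank 3183) and replicate 2 a signal of 8.63 (rank 4487). The body of wee-1.3 held no reproducible summit. Its only relaxed summit in the pooled list, in a coding exon, had a signal of 7.56, where the lowest reproducible signal was 45.9.

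**Figure D1:**
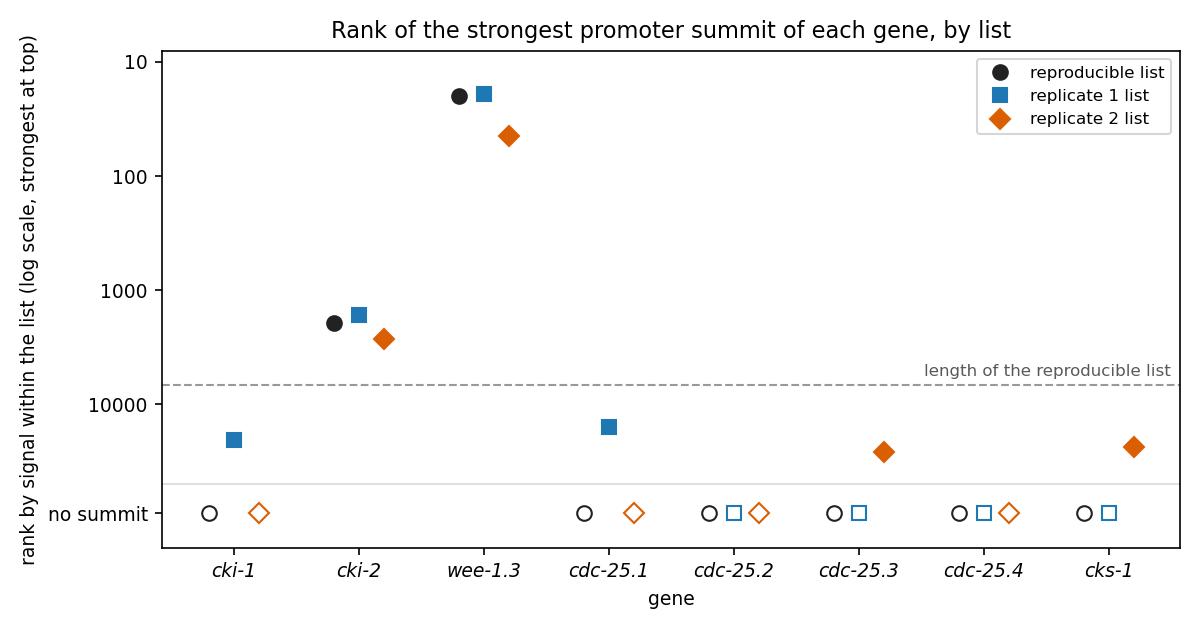
Rank of the strongest promoter summit of each of the 8 genes in the reproducible, replicate 1 and replicate 2 lists (log axis, strongest at the top; open symbols mark no summit in the promoter window). wee-1.3 ranked 20, 19 and 45 and cki-2 ranked 1922, 1654 and 2667, while the other genes ranked 15719 or lower down or had no promoter summit.

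The CDK inhibitor gene cki-2 had a promoter peak of middling strength. It encodes a CIP/KIP inhibitor related to cki-1 (WBGene00000517, chromosome II, plus strand, 7816499 to 7820281) and has 5 transcripts with 5 starts. The peak, from 7816262 to 7816448, was 187 bp wide and had its summit at 7816369, 130 bp upstream of the outermost start. Its signal of 164.9 ranked 1922 of 6712 peaks and, by gene, 1764 of 3959, which is 1.17 times the median of genes with a promoter peak.

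The replicates placed the cki-2 summit differently. Replicate 1 had it at the same base as the reproducible list, with a signal of 170.8 and rank 1654. In replicate 2 the summit lay in the 5′ UTR exon, 64 bp downstream of the nearest start, with a signal of 13.3 and rank 2667. The replicate summits were 195 bp apart, and 2.53% of the 6172 peaks found in both had a larger gap. The replicate 2 peak did not reach 50% reciprocal overlap with the reproducible peak. Replicate 2 alone also had a summit in an intron of cki-2, 1405 bp downstream of the nearest start, with a signal of 7.0 and rank 5742. The words shown above sit at the summit of replicate 1, not of replicate 2. The replicate 2 peak ran from 7816424 to 7816703. All E2F and CHR words within 75 bp of the reproducible summit lay outside that peak, between 7816355 and 7816413.

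The other inhibitor gene, cki-1, had no promoter peak, but 3 reproducible summits lay farther upstream. It encodes a CIP/KIP inhibitor that holds precursor cells in G1 in larvae (WBGene00000516, chromosome II, plus strand, 7811240 to 7812105). The gene lies 4393 bp upstream of cki-2 on the same strand, and 16917 bp separate it from the next protein-coding gene upstream, glr-4. The strongest of the 3 summits was 4152 bp upstream of the cki-1 start, with a signal of 442.8 and rank 646. In the reproducible list this was above the cki-2 promoter. The other 2 of these 3 were 5001 and 1986 bp upstream of cki-1, with signals of 125.2 and 121.7 and ranks 2589 and 2684. Of these 3, 2 were inside annotated genes other than protein-coding ones. That at 5001 bp was inside T05A6.9 and T05A6.10, and that at 1986 bp inside the non-coding RNA gene T05A6.15. The latter summit lay 51 bp from the start of T05A6.15, in its promoter window. In replicate 2 the summit matching that at 5001 bp, at 7806211, was inside no annotated gene.

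Both replicates held all 3 upstream summits among their strongest 6712 peaks. At 4152 bp replicate 1 had a signal of 431.6 (rank 618) and replicate 2 a signal of 11.1 (rank 3358). The cki-2 promoter summit was weaker than this in replicate 1, at 170.8 (rank 1654), but stronger in replicate 2, at 13.3 (rank 2667). At 5001 bp the signals were 115.3 (rank 2527) in replicate 1 and 7.59 (rank 5227) in replicate 2. At 1986 bp they were 107.0 (rank 2752) in replicate 1 and 9.29 (rank 4149) in replicate 2. The replicate summits were 28 to 37 bp apart, close to the median of 27 bp. Which gene these sites act on was not tested.

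**Figure D2:**
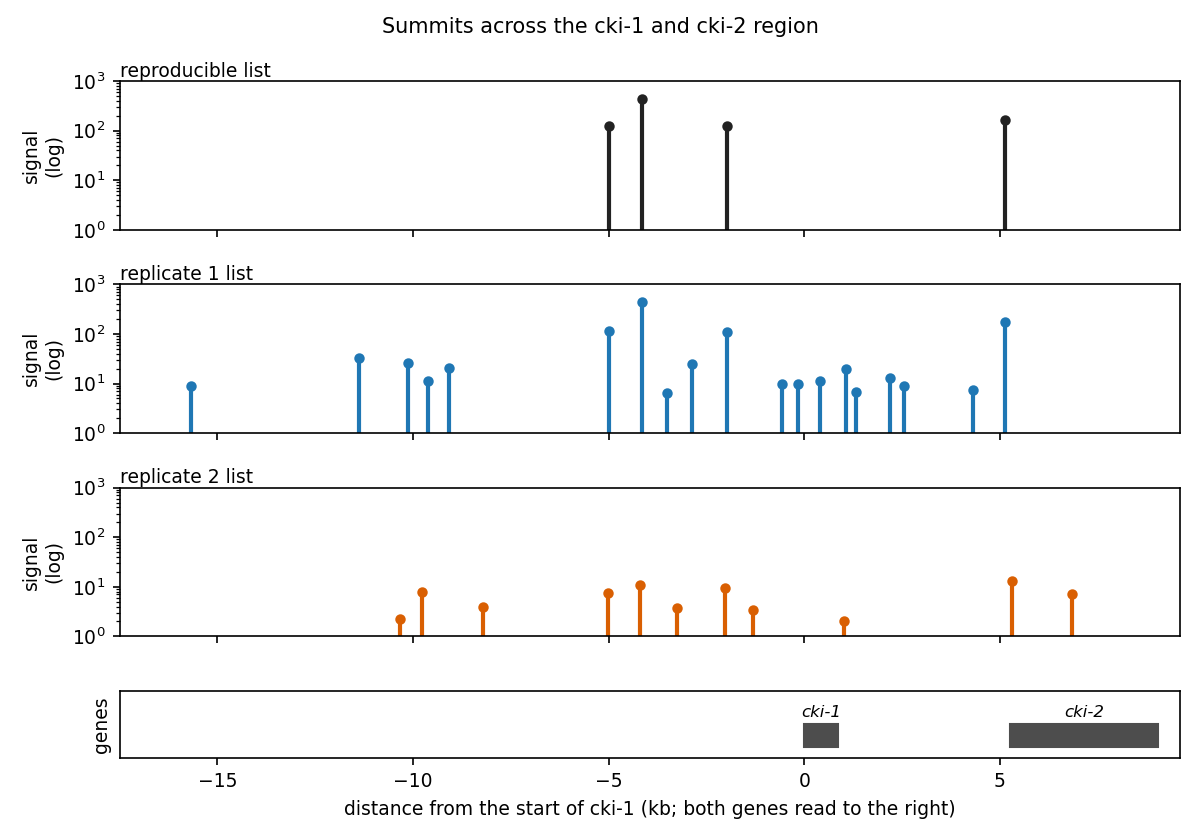
Signal of every summit (log axis, the caller's score, not comparable between lists) against the distance from the cki-1 start, between the neighbouring protein-coding genes glr-4 and irld-47. The reproducible list has 4 summits, of which 3 lie 1986 to 5001 bp upstream of cki-1 and 1 at the cki-2 promoter.

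Near the start of cki-1 itself the lists held weak summits at most. The pooled relaxed list, which includes background, had a summit 85 bp upstream with a signal of 8.76, and replicate 1 had one 147 bp upstream with a signal of 9.57 and rank 20651 of 30000. Replicate 2 had none in the promoter window. A relaxed coding exon summit had a signal of 14.4 in the pooled list and 11.3 in replicate 1, and replicate 2 again had none. The strongest relaxed summit close to the gene was 211 bp past its 3′ end, with a signal of 25.8 in the pooled list, which is 56.2% of the lowest reproducible signal.

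The 4 genes of the CDC25 family bore no reproducible peak at the promoter or in the gene body. CDC25 phosphatases activate CDKs, and in worms cdc-25.1 promotes germline and early intestinal divisions while cdc-25.2 acts in oocyte maturation and later intestinal divisions. For cdc-25.1 (WBGene00000386, chromosome I, 6469386 to 6471922, minus strand) the pooled relaxed list had 2 promoter summits. The stronger was 189 bp downstream of the start, in an intron, with a signal of 13.2, or 28.8% of the lowest reproducible signal. Replicate 1 had a summit 174 bp downstream with a signal of 13.1 and rank 15719, and replicate 2 had none. The nearest reproducible summit was 5894 bp from the start, close to the median of 4922 bp over all protein-coding genes, and lay in the windows of acdh-3 and K06A5.3.

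The longest of the 8 genes, cdc-25.2, had no promoter summit in any list at any of its 4 starts (WBGene00000387, chromosome V, 1567076 to 1585532, plus strand, 18457 bp). Its gene body held 1 weak summit in each replicate, at different places. Replicate 1 had one in the 3′ UTR exon with a signal of 7.25 and rank 26352. Replicate 2 had one in a coding exon with a signal of 3.60 and rank 13284. The nearest reproducible summit was 10606 bp from a start, and 31.6% of protein-coding genes had theirs more than 10 kb away.

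The remaining CDC25 genes were the emptiest. For cdc-25.3 (WBGene00000388, chromosome III, 8916351 to 8917929, minus strand) replicate 2 had a promoter summit 311 bp upstream with a signal of 2.01, rank 26193 of 26341, and no other list had a summit in its window or body. For cdc-25.4 (WBGene00000389, chromosome II, 10188258 to 10189469, minus strand) no list had one. Their nearest reproducible summits were 12694 and 7818 bp from the start, at the promoters of unc-32 and R05H5.3.

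The CDK-binding subunit gene cks-1 also lacked a reproducible peak at its own start, but one lay at the start of a same-strand gene just upstream. Cks proteins bind CDKs and help them phosphorylate their substrates. The gene (WBGene00001051, chromosome IV, 8513919 to 8514725, plus strand) is overlapped at its start by C09G4.4, which overlaps mes-6, a Polycomb group gene, and all of them are read in the same direction. At its own promoter only replicate 2 had a summit, 381 bp upstream, with a signal of 2.24 and rank 23382 of 26341. The nearest reproducible summit was 2672 bp upstream of the cks-1 start and 37 bp upstream of that of mes-6, with a signal of 456.8 and rank 628. Whether these genes share a transcript was not tested.

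**Figure D3:**
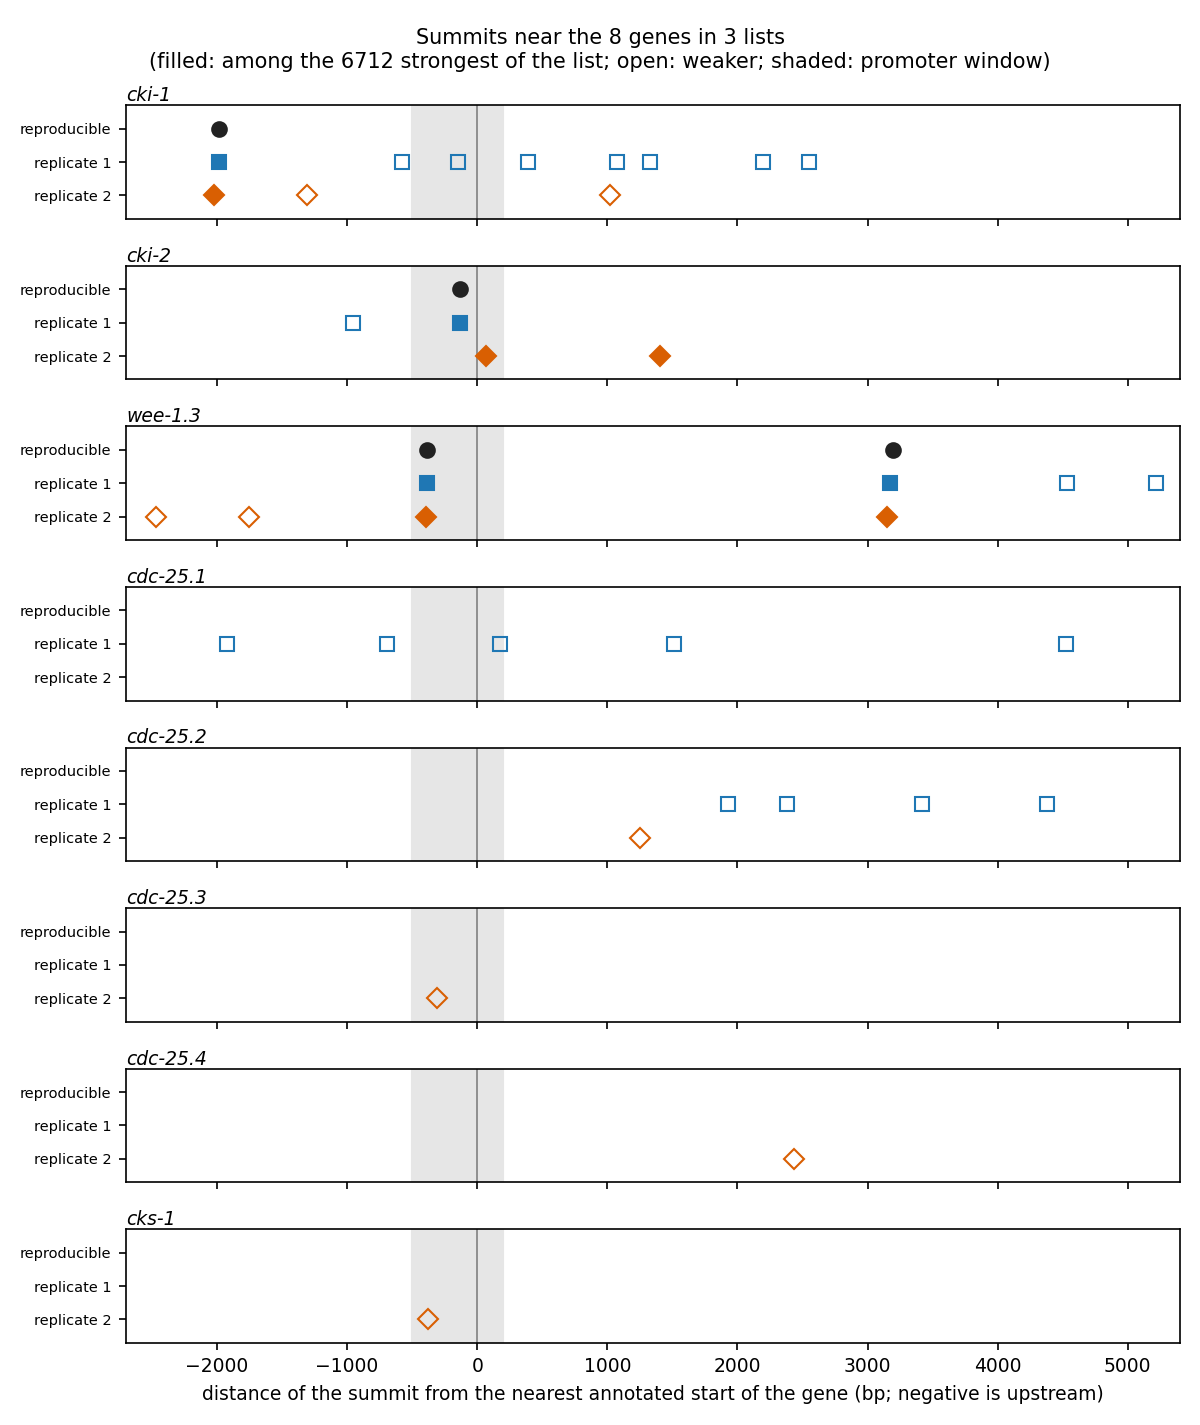
Summits near the 8 genes by distance from the nearest annotated start of the gene, with a row for each of 3 lists (filled symbols are among the 6712 strongest of the list, open ones are weaker, and the shaded band is the promoter window). Filled symbols in every list fall in the window at wee-1.3 and cki-2, 1986 to 2023 bp upstream at cki-1, and 3149 to 3199 bp downstream of the wee-1.3 start, past the end of that gene.

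The relaxed lists gave promoter summits to more of the 8 genes. In the pooled relaxed list 4 of 8 had one (cki-1, cki-2, cdc-25.1 and wee-1.3), against 38.3% of all protein-coding genes. In replicate 1 the same 4 did, against 38.2%. In replicate 2 it was cki-2, cdc-25.3, wee-1.3 and cks-1, against 35.6%. Only wee-1.3 and cki-2 had one in both replicates, and at 50% reciprocal overlap with the reproducible peak 0 of the 8 did. The weak promoter summits of the other 4 genes were each found in 1 replicate. No gene body held a reproducible summit outside the promoter window, against 5.35% of all protein-coding genes. In the relaxed lists body summits were found at 3 of 8 genes in replicate 1 (background 33%) and at 2 of 8 in replicate 2 (37.2%). In the pooled relaxed list it was 3 of 8, against 33.4%. Among only the 6712 strongest peaks of each replicate, cki-2 and wee-1.3 were again the genes with a promoter summit, against 19.8% of all genes in replicate 1 and 17.8% in replicate 2. A body summit of that strength was found at 0 of 8 in replicate 1, against 5.44% of all genes, and at 1 of 8, cki-2, in replicate 2, against 6.59%.

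A list of other genes of the CDK pathway was read in the same way. The list, from cyclins and CDKs to the ubiquitin ligase genes that degrade CDK inhibitors, held 29 symbols, of which 28 matched the annotation (wee-1.2 did not). Of these, 16 bore a reproducible promoter peak (57.1%) against the 19.8% of all protein-coding genes. The difference from the 2 of 8 was not tested. The signals ran from 50.3 to 3137 with a median of 303.8, and wee-1.3 was exceeded only by the E2F gene efl-1 at 3137. The cyclin B gene cyb-1 had 1805, the checkpoint kinase gene chk-1 878.3, the DP gene dpl-1 751.5, cdk-1 675.3, the Polo-like kinase gene plk-1 468.6 and the CDK-activating kinase gene cdk-7 437.0. Lower signals were 317.6 for the checkpoint kinase gene atl-1, 289.9 for the phosphatase gene cdc-14, and 241.4, 116.4, 94.8 and 74.9 for the ubiquitin ligase subunit genes cul-4, rbx-1, cul-1 and skr-1. The remaining 3 were cdk-2 with 83.7, cdk-4 with 61.3 and the cyclin B3 gene cyb-3 with 50.3. Among the 6712 strongest peaks of replicate 2, 12 of these genes had a promoter summit, against 17.8% of all genes. In that replicate atl-1, cyb-3 and cdk-4 ranked lower, at 19232, 18046 and 10183 of 26341, and cul-1 had no promoter summit. The strong cyb-1 summit lay 497 bp upstream of its start, near the edge of the promoter window. It did not count for cyb-1 in a window of 250 bp either side, with RefSeq starts or by nearest start within 2 kb.

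The 12 pathway genes without a reproducible promoter peak included the G1 cyclin genes cyd-1 and cye-1, cya-1, fzr-1, lin-23 and wee-1.1, a relative of wee-1.3. The remaining 6 were cyh-1, mnat-1, cyb-2.1, cyb-2.2, plk-2 and lin-35. Some of the 12 had a reproducible summit elsewhere. A gene body summit was found at 3 of the 28 pathway genes, cdk-2, cye-1 and lin-23, against 5.35% of all protein-coding genes. With the window widened to 1000 bp upstream, 19 of the 28 had a promoter peak, against 24.1% of all genes, and mnat-1, cye-1 and lin-23 were those added. The genes lin-35 and ges-1, both parts of the transgene, had no promoter summit in any list, and unc-119, its marker, had one with a signal of 65.7. Copies of transgene sequence could map to these loci, which was not tested.

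**Figure D4:**
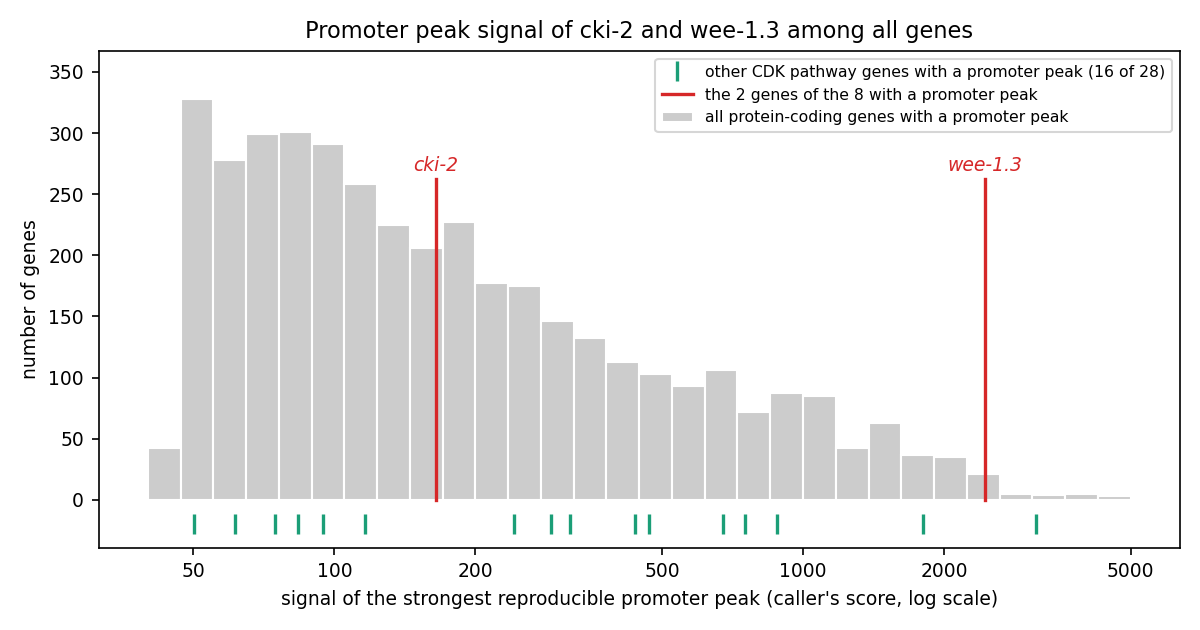
Signal of the strongest reproducible promoter peak (log axis, the caller's score) for the 3959 protein-coding genes that have one (bars), with cki-2 and wee-1.3 as red lines and 16 other CDK pathway genes as green ticks. wee-1.3 at 2444 lies in the upper tail and cki-2 at 164.9 near the median of 141.0.

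The genes whose promoter peaks ranked most like these were compared over 3 lists, as the Euclidean distance in percentile rank among 3662 genes with a promoter summit in all of them. For wee-1.3 they were cyn-3, a cyclophilin gene, with ranks 21, 20 and 48 in the reproducible, replicate 1 and replicate 2 lists, and rps-12, a ribosomal protein gene, with ranks 22, 21 and 37. For cki-2 they were ostd-1 and sym-3, with reproducible ranks 1905 and 1893. A likeness over 3 ranks describes peak strength only.

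The words at these 2 promoter summits were compared with those at all summits. Within 75 bp, an E2F word was found at 12.7% of the 6712 reproducible summits and at 36 of the 100 strongest, and a CHR word at 34.6% of all and 83 of the 100. The wee-1.3 promoter summit had 1 E2F and 2 CHR words and the cki-2 summit 2 of each. Those of cki-2 lay outside its replicate 2 peak. Both kinds of word together were found at 6.38% of all summits and at 30 of the 100 strongest. They lay 6 bases apart at wee-1.3 and 10 at cki-2, and 3.38% of all summits had them at most 10 bases apart. The same E2F word on both strands without overlap, as at cki-2, was found at 0.268% of summits. These word pairs were looked for after the sequences at the 8 genes had been seen. The cki-2 summit also had a GATA word, as did 23.3% of all summits, and the wee-1.3 promoter summit had none.

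Upstream of cki-1 the words differed between summits. The summit 4152 bp upstream had 2 overlapping E2F words and no CHR word. At 5001 bp there were 3 CHR words and none of the 4 E2F words searched. At 1986 bp none of the E2F, CHR or GATA words searched was found. Other forms of these sites were not searched, so a site of another form may be present. Of the CHR words at 5001 bp, those starting at 7806263 and 7806276 lay past the end of the peak at 7806254. The summit past the end of wee-1.3 had 1 CHR word.

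An E2F word near a start did not go with a peak throughout. In the 300 bases from 250 before to 50 after the outermost annotated start, 3 of the 8 genes held an E2F word, cki-2, cdc-25.2 and cks-1, against 9.20% of all protein-coding genes. All 8 held a CHR word, as did 68.9% of all genes, and 2 held a GATA word, against 30.2%. The wee-1.3 E2F word lies outside this stretch. The words of cdc-25.2 and cks-1 are shown because no reproducible peak lay over them. In cdc-25.2 the word was 173 bp upstream of the outermost start, which belongs to a non-coding transcript (chrV:1566892-1566921, plus strand). This gene has 4 annotated starts, another of which lies many kb downstream, and only the outermost was searched for words. In cks-1 it was 208 bp upstream, in a coding exon of C09G4.4 (chrIV:8513700-8513729, plus strand).
cdc-25.2: taaatatgtttTTGGCGCactacaaaaggc
cks-1: ttttgaaacacGCGGGAAactcgactctgt
A match describes these letters only, and whether a factor binds there was not tested beyond the peak lists.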

How the data were processed

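Peak lists in ce11 and ce10 were deposited by the authors for 2 biological replicates: 1 relaxed list for each, 1 for both pooled, and 1 reproducible list that passed an irreproducible discovery rate threshold. The control alignment was not used here. The aligner, the caller and the threshold are not stated in the sources used here. Each peak's deposited signal value served only to rank and describe peaks within a list. Gene starts were those of Ensembl release 115 (WBcel235, which is ce11), and sequence was read from the RefSeq genome, whose chromosome lengths fit the peaks. The summit is column 2 plus column 10, given here 1-based. The ce10 lists were not used here. No test was made, since there is 1 group. Named genes are the 8 members, pathway genes, the transgene parts and the genes of most similar ranks. The members and lists were chosen with earlier results of these data known. Alternatives were other windows, nearest starts within 2 kb, peak overlap, other lists, the strongest peaks of each replicate alone (as many as the reproducible list holds) and RefSeq starts. Window assignment and word search recovered all planted answers when tested on simulated data. Python 3.11.15, numpy 2.4.6 and pandas 2.3.3 were used.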

Additional observations from a re-analysis of the deposited data

How the results depend on the processing

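The count of 2 genes with a promoter peak kept both genes, cki-2 and wee-1.3, with the window widened to 1000 bp upstream, by overlap of the peak with the window, among the 3356 strongest peaks, with RefSeq starts (an alternative chosen after seeing the data) and among the 6712 strongest peaks of either replicate alone. The wider window and the overlap rule could add genes but could not lose these 2, and neither added any. The full relaxed list of each replicate gave 4 genes. The count of 2 fell to 1 gene, cki-2, in a window of 250 bp either side, where the best rank among the 8 genes became 1922 in place of 20, and it became 4 in the pooled relaxed list. With the nearest protein-coding start within 2 kb it became 3, through the summit 1986 bp upstream of cki-1, which is nearer the start of the non-coding T05A6.15. With replicate 1 or 2 alone the best rank was 19 and 45. The share of all protein-coding genes with a promoter peak was 38.3% in the pooled relaxed list and 12.7% among the 3356 strongest reproducible peaks. With 50% reciprocal overlap in both replicates, 0 of the 8 genes kept a shared promoter peak, since the replicate 2 peaks at cki-2 and wee-1.3 overlapped the reproducible peaks by less. With gene bodies extended by 500 bp, 1 gene, wee-1.3, held a reproducible summit, that in the tRNA gene. The count of 16 other pathway genes ran from 11 to 21 under these alternatives, and was 16 and 12 among the 6712 strongest peaks of replicate 1 or 2 alone. Whether each of the 8 genes had a promoter peak was the same as reported in 68 gene and alternative pairs and differed in 4. Part of this tally was fixed beforehand. The 3356 strongest peaks are part of the reproducible list and could not add a gene, and the wider window and overlap rule could not lose one. E2F words lay within 50 bp of both reproducible promoter summits, so the wider limits of 75 and 150 bp could not give another result. Read depth is unknown, so the absence of a peak is an absence from these lists only.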
